A study of Rattus norvegicus with 6 samples.

Results

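The sclerotome and notochord transcription factors are 10 genes, chosen by symbol: Pax1, Pax9, Nkx3-2, Sox9, Sox5, Sox6, Foxf1, Foxf2, Foxc2 and Tbxt. They were looked up in a combined table of raw RNA-seq read counts with 20264 gene symbols. A row was found for 8 of them, 7 had at least 1 count, and the same 7 passed the filter on low counts and were tested among 11426 genes. The libraries came from primary nucleus pulposus cells (NPCs), the cells of the gelatinous core of the intervertebral disc, which were isolated from the caudal vertebrae of wild-type male Sprague-Dawley rats and cultured. In the TBHP group, 3 cultures received tert-butyl hydroperoxide, an oxidant used to induce senescence. In the TBHP+FGF21 group, 3 cultures received TBHP together with recombinant rat FGF21, a secreted fibroblast growth factor. The question of the comparison was how FGF21 changes the transcriptome of TBHP-stressed NPCs. Every library was exposed to TBHP and no untreated library was analysed here, so no level can be set against unstressed cells. The age of the rats, the dose and duration of exposure of these cultures and the number of rats behind each culture are not given in the sources used here. The treatment labels name FGF21 for replicate 1 of the TBHP+FGF21 group, FGF22 for replicate 2 and FGF23 for replicate 3, whereas the treatment protocol and the design text give FGF21 for the whole group, and the grouping by title was used.

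During development, the notochord gives rise to the nucleus pulposus, and the sclerotome, the ventral part of each somite, gives rise to the vertebrae and the annulus fibrosus around the core. TBXT (brachyury) is the T-box factor that defines notochord. Hedgehog signals from the notochord induce the paired-box factors PAX1 and PAX9 in the sclerotome, and these act on NKX3-2, a homeobox repressor that favours cartilage formation. SOX9 is the master factor of chondrocytes, and SOX5 and SOX6 cooperate with it on cartilage matrix genes and are needed for the notochordal sheath. FOXF1, FOXF2 and FOXC2 are forkhead factors of mesoderm, of which FOXF1 is used as a marker of nucleus pulposus cells together with PAX1.

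Promoter windows are shown for 3 members that behaved differently in these libraries: Pax1, which had the smallest p-value of the members between the groups, Sox6, whose fold was nearest to 1, and Tbxt, which had no count. Each is the 250 bases before the annotated start, from RefSeq's promoter table of the GRCr8 rat assembly, written 5′ to 3′ on the gene's strand. The table has entries for 6 of the 10 members (Pax1, Pax9, Sox6, Foxf2, Nkx3-2 and Tbxt). Capitals mark matches, on either strand, to CCAAT (the CCAAT box) or AACAAT (the core bound by SOX factors).
Pax1, chr3:155245279-155245528, + strand: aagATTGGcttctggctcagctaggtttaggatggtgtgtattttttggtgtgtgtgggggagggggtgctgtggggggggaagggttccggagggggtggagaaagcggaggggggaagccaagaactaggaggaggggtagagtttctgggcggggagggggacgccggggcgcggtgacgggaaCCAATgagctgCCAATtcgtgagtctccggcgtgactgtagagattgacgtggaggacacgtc
Sox6, chr1:179665372-179665621, - strand: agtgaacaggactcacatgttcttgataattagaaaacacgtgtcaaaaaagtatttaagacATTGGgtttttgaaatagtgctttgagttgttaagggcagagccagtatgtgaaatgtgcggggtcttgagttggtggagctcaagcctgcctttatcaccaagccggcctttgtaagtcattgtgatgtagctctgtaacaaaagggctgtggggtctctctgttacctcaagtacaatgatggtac
Tbxt, chr1:54853584-54853833, - strand: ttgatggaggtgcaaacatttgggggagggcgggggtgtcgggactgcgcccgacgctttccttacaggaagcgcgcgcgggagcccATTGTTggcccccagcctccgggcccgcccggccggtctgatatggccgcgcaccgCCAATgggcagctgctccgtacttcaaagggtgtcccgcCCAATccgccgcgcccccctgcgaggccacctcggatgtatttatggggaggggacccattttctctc
The Pax1 window held 3 CCAAT matches, the Sox6 window 1 and the Tbxt window 2. The SOX core was found in the Tbxt window alone among the 3, with 1 match. The other motifs searched, TATAAA (the TATA box), TGTTTAC (a forkhead site) and AGGTGTGA (a T-box site), had no match in any of them. Of 33469 windows of this length in the table, 34.0% held CCAAT, 12.9% TATAAA, 3.21% TGTTTAC, 10.3% AACAAT and 0.959% AGGTGTGA. These are matches of letters, and no binding was measured.

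The libraries held between 18277732 and 22426190 counts. Levels are in CPM, the usual scaling of counts to the library total, with edgeR's TMM factors. The libraries grouped by treatment only in part. The chi-square per gene between the counts of TBHP+FGF21 replicate 2 and those of the 3 TBHP libraries was between 7.30 and 9.50, where counting error alone would give about 1, against 22.8 with replicate 1 and 44.4 with replicate 3 of its own group. Replicates 1 and 3 of that group were themselves 22.9 apart. TBHP replicates 1 and 2 were the closest pair, at 6.94, and lay between 30.8 and 58.4 from replicates 1 and 3 of the TBHP+FGF21 group. TBHP replicate 3 was 21.1 and 23.3 from the other TBHP libraries, but 8.49 from TBHP+FGF21 replicate 2 and 15.3 from TBHP+FGF21 replicate 1. Whether libraries were exchanged was not tested, and an exchange would change what each fold change below compares. Results are given with and without TBHP+FGF21 replicate 2. Since this is the treated library most like the controls, leaving it out widens the difference between the groups by construction, and p-values without it are given as a description of how far the results rest on it. The design text calls the cultures biological replicates. Since it does not say which rats they came from, the p-values measure the spread between these cultures, which may be technical.

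Pax1 (ENSRNOG00000024882) had 4108, 4648 and 4686 counts in TBHP replicates 1, 2 and 3, or 229, 211 and 219.7 CPM. In the TBHP+FGF21 group it had 7344, 4689 and 8837 counts, or 348, 224 and 385 CPM. Replicates 1 and 3 of the TBHP+FGF21 group lay above every TBHP library, and replicate 2 lay within the TBHP range, so the groups overlapped. The means were 219.96 ± 9.36 CPM with TBHP (SD, n = 3) and 319 ± 84.2 CPM with TBHP+FGF21 (SD, n = 3). As a log2 fold change (log2FC), TBHP+FGF21 over TBHP was 0.54 (standard error, SE, 0.16, 95% interval 0.19 to 0.89), and it did not pass edgeR's quasi-likelihood test after Benjamini-Hochberg adjustment over all genes (unadjusted p = 0.00583, adjusted p = 0.553). The coefficient of variation was 4.26% in the TBHP group and 26.4% in the TBHP+FGF21 group. Without TBHP+FGF21 replicate 2 the log2FC was 0.75 (95% interval 0.53 to 0.96, adjusted p = 2.68e-04 by edgeR). When any other library was left out it stayed between 0.39 and 0.58.

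Nkx3-2 (ENSRNOG00000060782), which acts downstream of PAX1 and PAX9, had 310, 252 and 354 counts in the TBHP libraries and 412, 326 and 380 counts in the TBHP+FGF21 libraries. These were 17.3, 11.4 and 16.6 CPM against 19.5, 15.6 and 16.6 CPM. The values of the groups overlapped, with replicate 2 lowest in each group. The means were 15.1 ± 3.21 CPM with TBHP (SD, n = 3) and 17.2 ± 2.04 CPM (SD, n = 3). The log2FC was 0.19 (SE 0.16, adjusted p = 0.681 by edgeR). Its 95% interval, from -0.16 to 0.55, corresponds to a fold between 0.894 and 1.46, so changes within that range are not excluded. Leaving out TBHP replicate 2 brought the value down to 0.02, and without TBHP+FGF21 replicate 2 it was 0.27 (adjusted p = 0.340 by edgeR).

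**Figure D1:**
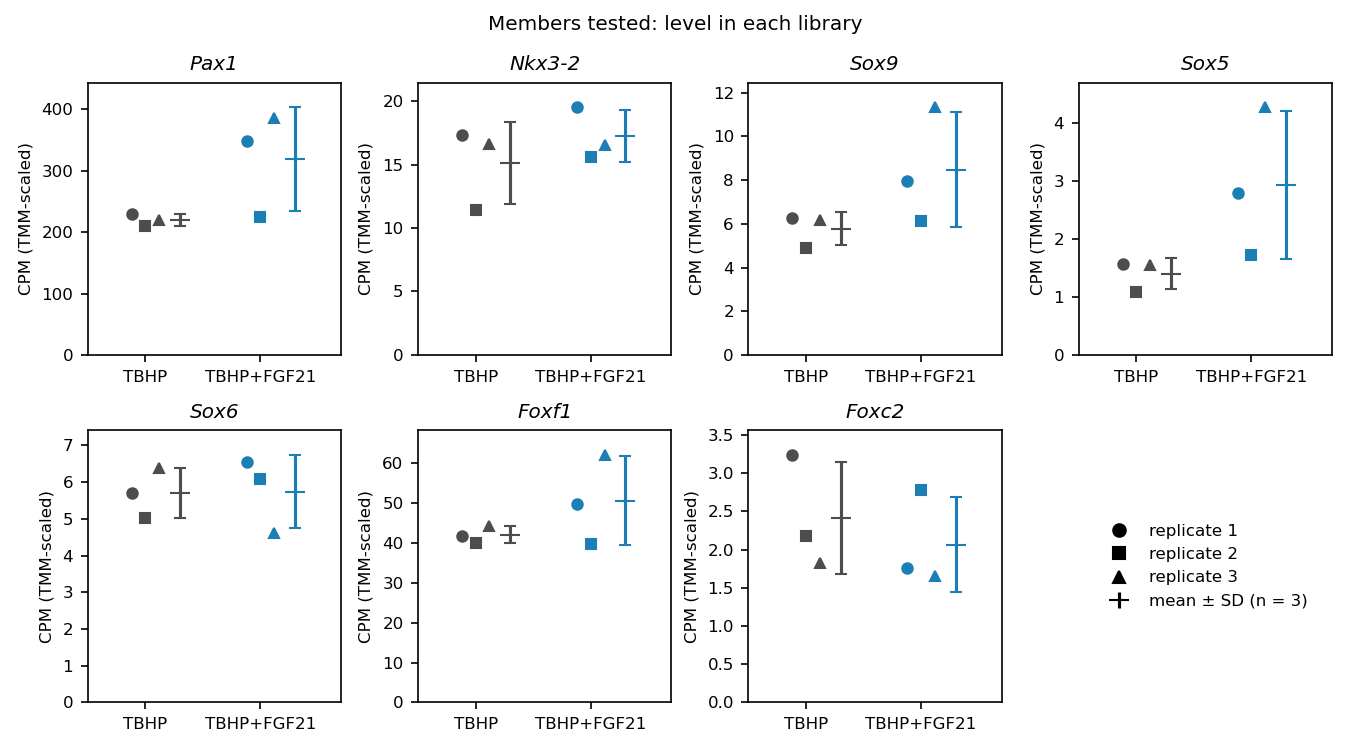
CPM after TMM scaling (vertical axis, from 0) in each library of the TBHP and TBHP+FGF21 groups for the 7 members tested, with marker shapes for replicates and bars for the mean ± SD (n = 3). For Pax1, Sox9, Sox5 and Foxf1, replicates 3 and 1 of the TBHP+FGF21 group are the highest libraries and replicate 2 lies nearer to the TBHP group.

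Of the SOX factors, Sox9 (ENSRNOG00000002607) had 112, 108 and 132 counts in the TBHP libraries and 168, 128 and 260 counts in the TBHP+FGF21 libraries. This corresponds to 6.26, 4.90 and 6.19 CPM against 7.96, 6.13 and 11.3 CPM. Replicate 3 of the TBHP+FGF21 group was highest and replicate 1 second, while replicate 2 lay within the TBHP range. The means were 5.78 ± 0.77 CPM and 8.47 ± 2.64 CPM (SD, n = 3 each). The log2FC was 0.56 (SE 0.22, 95% interval 0.09 to 1.03, unadjusted p = 0.0241, adjusted p = 0.553 by edgeR). It was 0.75 without TBHP+FGF21 replicate 2 (adjusted p = 0.0216 by edgeR) and 0.30 without replicate 3 of that group.

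Sox5 (ENSRNOG00000027869) had the largest log2FC among the 7 members tested and few counts. There were 28, 24 and 33 counts in the TBHP libraries and 59, 36 and 98 counts in the TBHP+FGF21 libraries. In CPM these were 1.56, 1.09 and 1.55 against 2.80, 1.72 and 4.27. It was the only member tested whose groups did not overlap, although replicate 2 of the TBHP+FGF21 group was close to the highest TBHP library (two-sided exact permutation test over the 6 libraries, p = 0.1, the smallest possible with 3 against 3). The means were 1.40 ± 0.27 CPM and 2.93 ± 1.28 CPM (SD, n = 3 each). The log2FC was 1.08 (SE 0.33, 95% interval 0.36 to 1.79, unadjusted p = 0.00646, adjusted p = 0.553 by edgeR), a fold of 2.11. Without TBHP+FGF21 replicate 2 it was 1.36 (adjusted p = 0.00671 by edgeR), and without replicate 3 of that group it was 0.70.

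Sox6 (ENSRNOG00000020514), the close relative of Sox5, had 102, 111 and 136 counts in the TBHP libraries and 138, 127 and 106 counts in the TBHP+FGF21 libraries. The levels were 5.70, 5.03 and 6.38 CPM against 6.54, 6.08 and 4.62 CPM. The groups overlapped over their whole TBHP range, and here TBHP+FGF21 replicate 3 was the lowest of the 6 libraries. The means were 5.70 ± 0.67 CPM and 5.75 ± 1.00 CPM (SD, n = 3 each). The log2FC was 0.0094 (SE 0.18, adjusted p = 0.990 by edgeR), with a 95% interval from -0.38 to 0.40, a fold between 0.767 and 1.32. The sign changed with single libraries left out, within a range of -0.083 to 0.15.

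The ratio of Sox5 to Sox6 counts within a library does not depend on the scaling between libraries. On the log2 scale, with 0.5 added to each count, it was -1.85, -2.19 and -2.03 in TBHP replicates 1, 2 and 3 and -1.22, -1.80 and -0.11 in the TBHP+FGF21 group. All 3 ratios of the TBHP+FGF21 group were above the TBHP ratios, replicate 2 by a small margin. The group means were -2.02 ± 0.17 and -1.05 ± 0.86 (SD, n = 3 each), and the difference of 0.97 had p = 0.1 in a two-sided exact permutation test, the smallest this design allows. It was 1.35 without TBHP+FGF21 replicate 2 and 0.51 without replicate 3. For Foxf1 with Foxf2 and for Pax1 with Pax9 no ratio could be formed, since there was no row for Foxf2 or Pax9.

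Of the forkhead factors, Foxf1 (ENSRNOG00000049906) had 749, 882 and 945 counts in the TBHP libraries and 1050, 832 and 1425 counts in the TBHP+FGF21 libraries. The levels were 41.8, 40.0 and 44.3 CPM against 49.7, 39.8 and 62.1 CPM. Replicates 3 and 1 of the TBHP+FGF21 group were the highest of the 6 libraries and replicate 2 was the lowest. The means were 42.0 ± 2.16 CPM and 50.6 ± 11.2 CPM (SD, n = 3 each), and the log2FC was 0.27 (SE 0.14, 95% interval -0.04 to 0.57, adjusted p = 0.559 by edgeR). Without TBHP+FGF21 replicate 2 it was 0.42 (adjusted p = 0.0329 by edgeR), and without replicate 3 it was 0.10. For Foxf1 the counts of the separate strand columns added up to more than the unstranded count, by 8.42% to 14.9% of their sum. Unstranded counting leaves out reads that overlap genes on both strands. The excess was 0 for the other 6 members tested. With the summed strand columns the log2FC of Foxf1 was 0.24. The strand columns had nearly equal totals in every library (ratio 0.977 to 0.986), so reads of Foxf1 and of a partner on the opposite strand cannot be told apart.

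Foxc2 (ENSRNOG00000047446), a factor of paraxial mesoderm and vessels, had 58, 48 and 39 counts in the TBHP libraries and 37, 58 and 38 counts in the TBHP+FGF21 libraries. The levels were 3.24, 2.18 and 1.83 CPM against 1.75, 2.78 and 1.66 CPM. It was the only member tested with a negative log2FC, -0.22 (SE 0.29, 95% interval -0.84 to 0.41, adjusted p = 0.796 by edgeR), and the groups overlapped. The means were 2.41 ± 0.74 CPM and 2.06 ± 0.62 CPM (SD, n = 3 each). Without TBHP replicate 1, the highest library, the value was 0.044, so the direction rested on that library. It was -0.48 without TBHP+FGF21 replicate 2 (adjusted p = 0.340 by edgeR).

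Tbxt had 0 counts in all 6 libraries. A count of 0 allows a level of up to 0.131 to 0.168 CPM, taken as 3 counts of each library, so Tbxt was not detected at this depth. That limit assumes that the combined table holds the reads of Tbxt, which could not be checked in the per-sample counts. Pax9 and Foxf2 have no row in the combined table and were not analysed here. Markers of notochord and nucleus pulposus were checked against the label of the cells. Of 12 genes listed, 11 had a row (all but Krt19) and 5 were tested. All had a negative log2FC, from -0.55 (Cd24) to -0.0039 (Chrd) with a median of -0.34, none at an unadjusted p under 0.05. Shh and Noto, which define notochord, were at 0 in every library, as was Tbxt. Krt18, a keratin of notochordal cells, was between 0 and 0.168 CPM, and Foxa2 between 0.0474 and 0.469 CPM. Among the genes too low to test, Krt18 and Foxa2 had lower means with TBHP+FGF21, while Foxa1 and Car12 had higher means. Krt8, another keratin, averaged 3.82 ± 0.39 CPM with TBHP and 2.83 ± 0.46 CPM with TBHP+FGF21 (SD, n = 3 each). Cd24, a surface marker of nucleus pulposus cells, lay between 0.718 and 2.13 CPM. In contrast, Acan, which encodes the aggregating proteoglycan of disc and cartilage, was between 2506 and 4355 CPM in every library, while Col2a1, the fibrillar collagen of the nucleus pulposus, was between 0.408 and 0.782 CPM. The highest of the list were Cdh2 (N-cadherin), between 35.6 and 46.1 CPM, and Chrd (chordin, a BMP antagonist made by notochord), between 26.0 and 34.6 CPM. Both were nearly unchanged, with log2FC values of -0.012 and -0.0039. The libraries thus held transcripts of Pax1, Foxf1, Cdh2, Chrd and Acan, while Tbxt, Shh and Noto were at 0 and Col2a1 and Krt18 were low. Col1a1, a fibrillar collagen on the fibroblast list below, was far higher, between 27868 and 42463 CPM. In bulk libraries, fewer cells of a type and less RNA per cell cannot be told apart.

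Over the 7 members tested, 6 log2FC values were above 0 and 1 was below, with a median of 0.27, against a median of -0.0052 over the 11426 genes tested, of which 48.9% were above 0. By edgeR, 0 of 7 members had an adjusted p under 0.05, against 0.00875% of all genes (1 gene, not a member). The members' adjusted p ranged from 0.553 to 0.990. An unadjusted p under 0.05 was reached by 3 of 7 (Pax1, Sox5 and Sox9, all higher with FGF21), against 8.92% of all genes, or 4.63% counting higher genes alone. With limma on log2(normalized count + 1), 1 member (Sox5) reached it, against 4.50% of all genes. The study's cut-offs, a log2FC beyond 1 in either direction and an unadjusted p below 0.05, were applied to the edgeR fit, not to the study's own test. By them 1 member passed (Sox5), against 0.534% of all genes (61 genes). The study reported more genes at these cut-offs. The log2FC of Sox5 lay near the cut-off with limma, at 1.001 with limma-voom and 0.97 with limma on log2(normalized count + 1). The groups did not overlap for 1 of 7 members (Sox5), against 9.90% of all genes. The order with TBHP+FGF21 replicate 3 highest and replicate 1 second was found for 4 of 7 (Pax1, Sox9, Sox5 and Foxf1), against 11.8% of all genes. This order was not planned and is the one these members show, so its share among them is a description and no support for a difference. The median SE of the members was 0.18, and that of all genes 0.13.

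**Figure D2:**
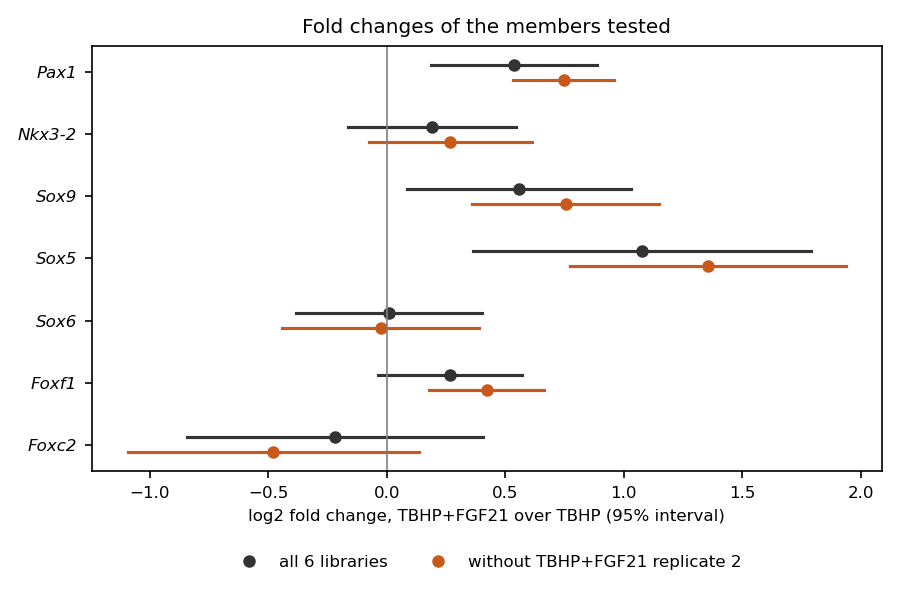
Log2 fold change of TBHP+FGF21 over TBHP (horizontal axis) with its 95% interval for the 7 members tested, from all 6 libraries and without TBHP+FGF21 replicate 2. The intervals of Pax1, Sox9 and Sox5 lie above 0 in both fits and that of Foxf1 only without replicate 2, while those of Nkx3-2, Sox6 and Foxc2 include 0.

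Without TBHP+FGF21 replicate 2, 4 of the 7 members (Pax1, Sox5, Sox9 and Foxf1) were higher with an adjusted p under 0.05 by edgeR, against 7.50% of the 11559 genes tested in that fit (3.78% counting higher genes alone). As the library left out resembles the controls, these calls are no independent support for a difference. The median log2FC of the members was then 0.42, and that of all genes 0.0014. No member was called when any other library was left out. With replicate 1 of the TBHP+FGF21 group alone against the 3 TBHP libraries, since replicate 1 is the library whose own label names FGF21, 1 member had an adjusted p under 0.05 by edgeR, Pax1 (log2FC 0.67), against 2.77% of all genes. That fit assumes that the lone library varies like the TBHP libraries, which does not hold for Pax1 (coefficient of variation 4.26% against 26.4%), so nothing is read from it.

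**Figure D3:**
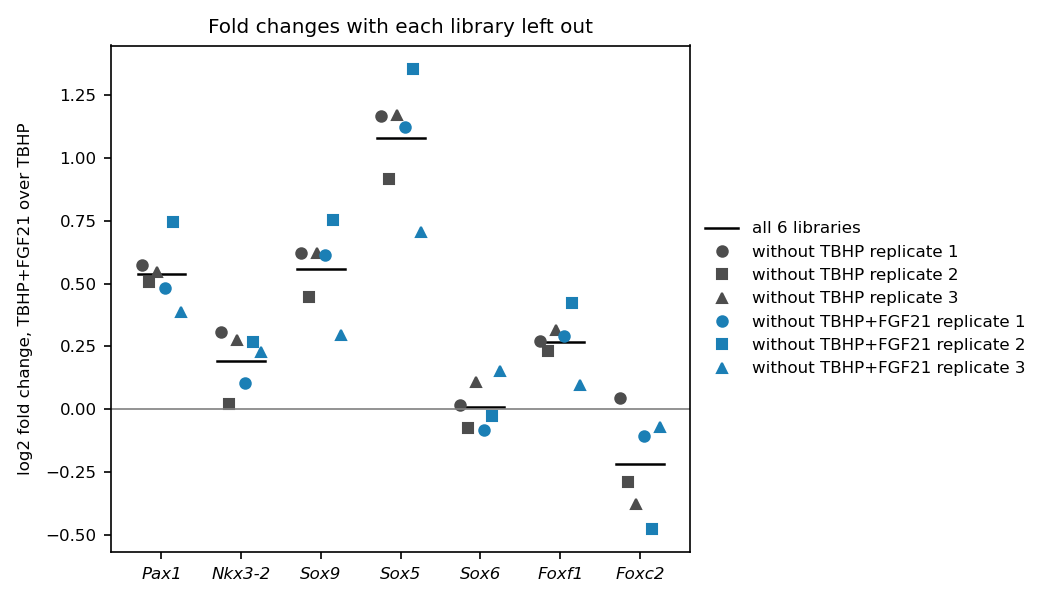
Log2 fold change of TBHP+FGF21 over TBHP (vertical axis) for each member tested, from all libraries (line) and with each library left out in turn (markers). Leaving out TBHP+FGF21 replicate 2 gives the highest value for Pax1, Sox9, Sox5 and Foxf1 (0.75, 0.75, 1.36 and 0.42), and leaving out replicate 3 of that group the lowest (0.39, 0.30, 0.70 and 0.10).

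Genes that SOX9, SOX5 and SOX6 are known to regulate were read from the same fit. Of 17 cartilage matrix genes listed, 9 were tested, 4 higher and 5 lower, with a median log2FC of -0.08, and none had an adjusted p under 0.05 by edgeR (1 higher and 1 lower at an unadjusted p under 0.05). Acan was at 2681, 2506 and 2939 CPM in the TBHP libraries and 3476, 2864 and 4355 CPM in the TBHP+FGF21 libraries, with a log2FC of 0.40 (SE 0.14, adjusted p = 0.553 by edgeR). Its libraries had replicate 3 highest and replicate 1 second, as for Sox9. Col11a1, a minor fibrillar collagen, was at 1679, 1628 and 1645 CPM in the TBHP libraries and 1333, 1609.7 and 905 CPM in the TBHP+FGF21 libraries, with a log2FC of -0.36 (SE 0.16, adjusted p = 0.553 by edgeR), the opposite direction with the same libraries farthest out. Without TBHP+FGF21 replicate 2, Acan was at 0.54 (adjusted p = 0.0126) and Col11a1 at -0.55 (adjusted p = 0.0196 by edgeR). The next smallest p-values of the list were those of Col27a1, a fibrillar collagen of cartilage (0.19), and Chad, a leucine-rich matrix protein (-0.48), neither of which passed the test. Matn1 and Cnmd were at 0 in every library.

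Of 12 other somite and sclerotome factors, 8 were tested, 7 higher and 1 lower, with a median log2FC of 0.16 and none called. Meox1 and Meox2, homeobox factors of the somite, averaged 8.60 ± 0.15 and 29.5 ± 1.79 CPM with TBHP, and 10.8 ± 1.28 and 36.8 ± 6.21 CPM with TBHP+FGF21 (SD, n = 3 each). Their log2FC values were 0.33 and 0.32 (unadjusted p = 0.0355 and 0.0272, adjusted p = 0.553 for both by edgeR), and Meox2 was at 0.43 without TBHP+FGF21 replicate 2 (adjusted p = 0.0312). The 1 with a negative value was Twist2, at -0.09. The list ranged up to Prrx2, a homeobox factor of limb and skeletal mesenchyme, with 179 to 239 CPM, and Tcf15 and Zic2 were at 0. Among 7 close relatives of the members, only Sox13, a relative of Sox5 and Sox6, and Tbx19, a relative of Tbxt, were tested, at log2FC values of 0.15 and -0.43 (adjusted p = 0.748 and 0.689 by edgeR). Sox10 was at 0, and Sox8, the relative of Sox9, was between 0.112 and 0.567 CPM.

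Other lists bear on the cells that the cultures could hold. Of 10 annulus fibrosus and tendon genes, 6 were tested, 4 higher and 2 lower (median 0.06), none called. Scx, the tendon factor scleraxis, averaged 132 ± 19.8 CPM with TBHP and 101 ± 23.9 CPM with TBHP+FGF21 (SD, n = 3 each), a log2FC of -0.39 (adjusted p = 0.553 by edgeR), and -0.60 without TBHP+FGF21 replicate 2 (adjusted p = 0.00546). Mkx, the tendon factor mohawk, had a log2FC of 0.22 (adjusted p = 0.555 by edgeR). All 9 fibroblast matrix genes were tested, 5 higher and 4 lower (median 0.02), none called. They ranged from Col1a2, with 7 to 17 counts per library, to Col1a1, with 639245 to 862314, although both encode chains of the same collagen. Whether the combined table misses reads of Col1a2 or of other genes with low or 0 counts was not tested. The smallest p-values were those of Postn, a matricellular protein, at -0.43, and Pdgfra, a growth factor receptor of mesenchyme, at 0.39. Postn was at -0.60 (adjusted p = 0.00354) and Pdgfra at 0.58 (adjusted p = 0.00219 by edgeR) once TBHP+FGF21 replicate 2 was left out.

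Defining markers of several other lineages were at 0, while other genes of the same lists had counts. Ptprc, Adgre1 and Cd163 (leukocytes and macrophages) and Cdh5 and Kdr (endothelium) were at 0 in every library, and the 2 macrophage markers and 1 endothelial marker tested were not called (medians -0.04 and -0.11). The summed level of the macrophage list was 32.2 to 38.2 CPM with TBHP and 26.6 to 32.9 CPM with TBHP+FGF21, most of it Cd14, a lipopolysaccharide co-receptor (24.97 to 35.6 CPM over all libraries). That of the endothelial list was 8.10 to 10.8 CPM and 7.11 to 10.7 CPM, most of it Cldn5 (6.28 to 10.2 CPM over all libraries). Cd68, a macrophage marker, was between 1.27 and 2.27 CPM, and Vwf, Tek and Csf1r had few counts in every library. Of 6 osteoblast markers, 4 were tested and all were higher, with a median of 0.43 and none called. Runx2 and Ibsp, the highest of them in CPM, were nearly unchanged, with log2FC values of 0.023 and 0.042. Alpl, an alkaline phosphatase, averaged 1.60 ± 0.19 CPM with TBHP and 2.80 ± 0.41 CPM with TBHP+FGF21 (SD, n = 3 each), a log2FC of 0.81 (adjusted p = 0.553 by edgeR, and 0.90 with adjusted p = 0.0421 without TBHP+FGF21 replicate 2). Dmp1, a matrix phosphoprotein of bone, had a log2FC of 0.89 (unadjusted p = 0.0398 by edgeR). It had 61 counts in TBHP+FGF21 replicate 3, against 24 and 22 in replicates 1 and 2 of that group. The summed level of that list was 58.1 to 64.8 CPM with TBHP and 60.5 to 67.0 CPM with TBHP+FGF21. Of 6 skeletal muscle markers, Myod1, Myog and Myh3 were at 0, and 2 were tested. The summed level of the list was 143 to 159 CPM in the TBHP libraries and 176, 141 and 224 CPM in replicates 1, 2 and 3 of the TBHP+FGF21 group, the same order within that group as for Pax1, although replicate 2 was the lowest of the 6 libraries here. This sum was mostly Des, an intermediate filament gene (137 to 223 CPM over all libraries). Their part in the members' values was not tested. When TBHP+FGF21 replicate 2 was left out, Des was at 0.43 (adjusted p = 0.0265) and Acta1, skeletal actin, at -1.09 (adjusted p = 0.0197 by edgeR).

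**Figure D4:**
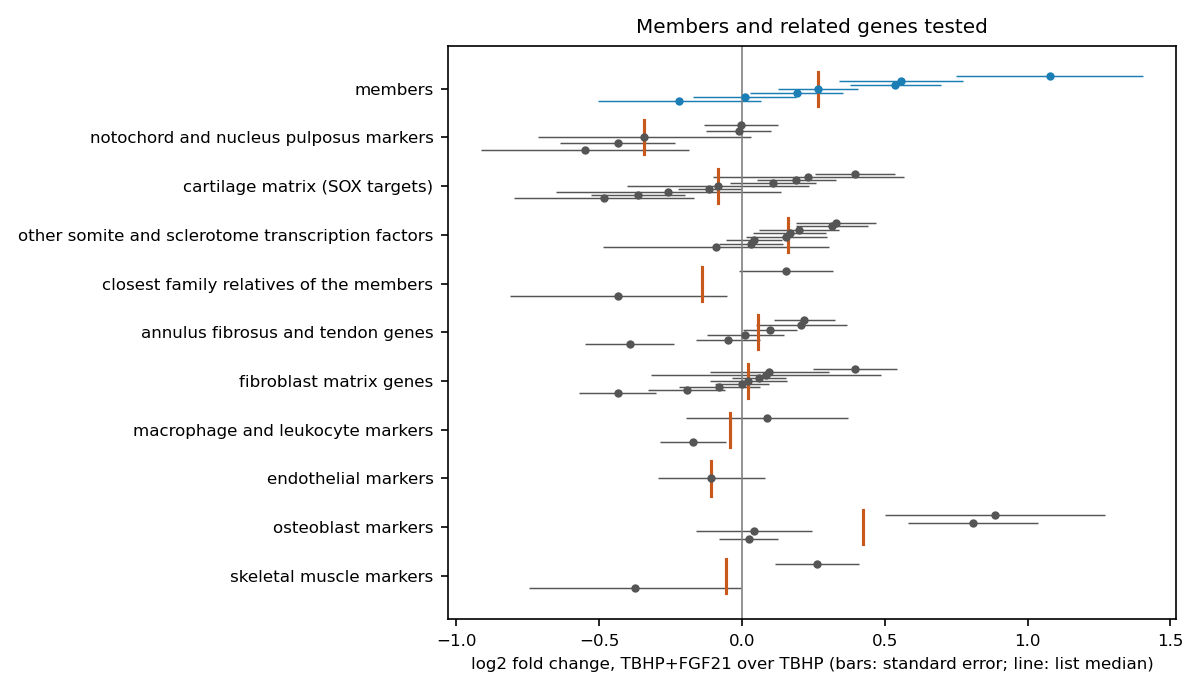
Log2 fold change of TBHP+FGF21 over TBHP (horizontal axis) with its standard error for the members and for the related genes tested, by list, with a line at each median. The members have a median of 0.27 and the somite and sclerotome factors one of 0.16, the notochord and nucleus pulposus markers one of -0.34, and none of the genes plotted was called.

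For each member, the genes whose log2 CPM, centred over the 6 libraries, lay nearest to it were found by root mean square difference. With many genes and 6 libraries some lie close to any pattern. For Pax1 they were Casq2, a calcium-binding protein of muscle (0.0301 log2 units), Olfml2b (0.0446) and Abcc9 (0.0564), while the median over all genes was 0.373. For Sox5 the nearest was the nuclear receptor Nr4a1 (0.0261), followed by Elmod1 and the zinc-finger factor Prdm1 (0.0966 and 0.102). For Sox9 they were Serinc2, Sod3 and Shisa2 (0.0734, 0.0790 and 0.0804). Foxf1 lay nearest to Cyb5r3, Anxa11 and Adamts7 (0.0288, 0.0335 and 0.0352). Sox6 lay nearest to Akna, Thbs1 and Fn1 (0.0343, 0.0349 and 0.0454), of which the last encodes the matrix protein fibronectin. For Nkx3-2 they were Rabl2, Sox13 and Zscan12 (0.0332, 0.0545 and 0.0652), and for Foxc2 Pnpla4, Cdpf1 and Maff (0.0651, 0.0737 and 0.0890). None of the 7 members was among the nearest genes of another.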

How the data were processed

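Poly-A RNA of 6 rat NPC cultures was sequenced, and libraries were grouped by title, 3 per group. The authors deposited raw counts per Ensembl gene for each library and a combined table per gene symbol, whose 22 rows with values ending in 0.5 were rounded up, so that these values were handled like expected counts. The submitters' processing notes name STAR and featureCounts, and the genome build is not given in the sources used here. The rows of the 7 members with counts equalled per-sample unstranded counts, which gave their Ensembl identifiers; Tbxt, at 0, could not be matched in this way. The members and lists were chosen with earlier results of these data known.

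The whole combined table was fitted with edgeR 4.0.16 in R 4.3.3 (TMM, filterByExpr with minimum count 10 and minimum total 15, condition as the only term, glmQLFit and glmQLFTest, Benjamini-Hochberg over 11426 genes). The SE of a log2FC is its size over the root of the F statistic. Log2 CPM used an offset of 0.5. The genes named were all members, the called genes of each list or those with the smallest p in each direction, list extremes, genes at 0 and the 3 genes nearest to each member. Reads not assigned to a single gene (18.5% to 20.9% per library in the per-sample files) stayed out, and this share can include unmapped and multiply mapped reads. On simulated counts of 11426 genes for this comparison, edgeR recovered 180 of 200 genes simulated at a log2FC of 1, with 13 false calls. Recovery with libraries that group by treatment only in part, as they do here, was not tested. In the reported fit 1 of 11426 genes was called, and Sox5, at a log2FC of 1.08, had an adjusted p of 0.553 by edgeR. The intervals of the log2FC values include the spread between libraries as edgeR estimated it, while the limit given for Tbxt covers counting error only. The alternatives used DESeq2 1.42.0 and limma 3.58.1 besides edgeR.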

Additional observations from a re-analysis of the deposited data

How the results depend on the processing

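No member had an adjusted p under 0.05 under 10 of the 11 alternatives with a different table, scaling, filter, test or choice of libraries, nor under 5 of the 6 fits without 1 library. With TBHP+FGF21 replicate 1 alone against the TBHP libraries the number was 1 of 7 members, 5 related genes, and 325 genes in all (1669 at an unadjusted p under 0.05). Across the fits without 1 library the number was 0 to 4 members, 0 to 9 related genes and 0 to 867 genes in all. In the reported fit 48 related genes were tested, and the 867 genes were 7.50% of those tested without TBHP+FGF21 replicate 2. At an unadjusted p under 0.05 there were 337 to 2732 genes and 2 to 4 members. The highest numbers came without TBHP+FGF21 replicate 2, the treated library most like the controls. The number of all genes called, 1 in the reported fit, was 0 with the per-sample unstranded counts, limma-voom, limma on log2(normalized count + 1) and the summed strand columns, 4 with DESeq2's Wald test, 5 with no filter and 2 with the replicate block. At an unadjusted p under 0.05, limma on log2(normalized count + 1) gave 669 genes (4.50%) and 1 member, Sox5. The summed strand columns were added after seeing the data, and the cause of these shifts was not tested.

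With the replicate number as a block, 1599 genes had an unadjusted p under 0.05 and no member was called. The numbers share no stated origin: the deviations of same-numbered libraries correlated at -0.14, 0.27 and 0.18 across genes, and 3 of 6 libraries correlated best with their own number.

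The log2 fold changes of the members kept their direction in all alternatives run, except for Sox6 with limma-voom (-0.0027) and for Sox6 and Foxc2 without single libraries. Sox6 ranged from -0.083 to 0.15 when 1 library was left out, and was below 0 without TBHP replicate 2, TBHP+FGF21 replicate 1 or TBHP+FGF21 replicate 2. Foxc2 ranged from -0.48 to 0.044, and was above 0 without TBHP replicate 1. The log2 ratio of Sox5 to Sox6 differed by 0.51 to 1.35 when 1 library was left out. Depth limits Sox5 and Foxc2 most, with at most 98 counts per library.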
